A study of Mus musculus with 960 samples.

Results

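The gene-desert windows of a mouse breast tumour were described: 500 bp stretches of open chromatin whose midpoint lay outside every protein-coding gene body and more than 100 kb from the nearest protein-coding start. They numbered 3501 of the 50000 windows in the deposited list, which is 7.00% (exact 95% binomial interval 6.78 to 7.23%, counting error only). The rule used only window positions on the mouse build mm9 and the GENCODE M1 annotation. The mouse model was MMTV-PyMT, in which the promoter of the mouse mammary tumour virus drives the polyoma middle T oncogene in mammary epithelium. Cells were fixed, stained and treated with Tn5 transposase, which inserts adapters into accessible DNA (ATAC-seq), and then index sorted into single wells. The methods describe this sort as made without selecting on a stain, while the study's results describe gates on EpCAM and CD45, so these sources do not settle how the wells were chosen. The labels list 960 wells, 768 on 8 plates stained for EpCAM and HIF1a and 192 on 2 plates stained for EpCAM and CD45, all from PyMT breast tumour tissue. They name no animal, age or strain background, and the wells of both stains share genotype and tissue. The list was called on pooled cells (whether the CD45 plates entered the pool is not stated), so it is 1 sample without replicates, and wells, stains or levels of HIF1a cannot be compared with it. It carries no scores or read counts, so the depth behind a window is unknown.

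A gene desert is a long stretch without protein-coding genes. Such stretches often flank genes of developmental and growth regulators, and open chromatin inside them is commonly made up of distal enhancers that act on a promoter over a long distance and of sites bound by CTCF, the factor that anchors chromatin loops. In mammary epithelium, well-studied distal elements lie in the desert around Myc. The labelled tissue was checked against marker genes through windows within 1 kb of their starts. All 9 luminal markers had such a window (Epcam, Krt8, Krt18, Krt19, Gata3, Elf5, Ehf, Esrp1 and Kit). None of 4 basal markers, none of 7 blood markers including Ptprc, which encodes CD45, and none of 3 endothelial markers had one, and of 4 fibroblast markers only Pdgfra did. These are short lists, and a gate on EpCAM or CD45 would bear on them. Of the 5 genes of a longer basal and myoepithelial list that are nearest to desert sequence, 4 (Sox9, Snai2, Egfr and Id4) had a window within 1 kb of a start, and the luminal marker Areg had none.

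Sequences are shown first for the windows that the results turn on. The 6 clusters with the most desert windows and the deserts of Myc and Gata3 are each represented by the window with the most motif families near its summit. Capitals mark matches, on either strand, to AP-1 (TGANTCA), the core of the nuclear factor I (NFI) site (TTGGCA), TEAD (GGAATG), GRHL (AACNNGTT), RUNX (TGTGGTT) and ETS (AGGAAGT). All sequences are the plus strand of mm9, read from the reference genome.
Cebpb to Ptpn1 cluster, chr2:167653873-167654112: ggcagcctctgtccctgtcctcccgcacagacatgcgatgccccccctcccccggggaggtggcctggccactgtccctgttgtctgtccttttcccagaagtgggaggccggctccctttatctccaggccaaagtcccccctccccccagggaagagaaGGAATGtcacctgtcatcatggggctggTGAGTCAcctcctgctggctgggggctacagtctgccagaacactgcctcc
Etaa1 to Meis1 cluster, chr11:18767640-18767879: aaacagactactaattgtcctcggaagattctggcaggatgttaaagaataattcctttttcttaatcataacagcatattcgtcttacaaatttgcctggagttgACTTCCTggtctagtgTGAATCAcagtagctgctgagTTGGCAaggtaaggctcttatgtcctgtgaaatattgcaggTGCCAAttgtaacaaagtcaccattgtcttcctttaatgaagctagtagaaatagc
Gli2 to Inhbb cluster, chr1:121188820-121189059: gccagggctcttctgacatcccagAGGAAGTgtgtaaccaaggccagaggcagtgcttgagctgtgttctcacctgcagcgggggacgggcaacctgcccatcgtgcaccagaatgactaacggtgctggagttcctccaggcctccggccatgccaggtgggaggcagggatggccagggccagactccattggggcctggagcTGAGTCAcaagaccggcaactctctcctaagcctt
Rad51l1 to Zfp36l1 cluster, chr12:81006769-81007008: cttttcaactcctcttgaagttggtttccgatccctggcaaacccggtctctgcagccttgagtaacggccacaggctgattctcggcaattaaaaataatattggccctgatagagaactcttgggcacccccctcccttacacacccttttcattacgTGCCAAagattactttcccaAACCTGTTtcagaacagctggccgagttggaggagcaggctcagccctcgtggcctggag
Phlda1 to Krr1 cluster, chr10:111240531-111240770: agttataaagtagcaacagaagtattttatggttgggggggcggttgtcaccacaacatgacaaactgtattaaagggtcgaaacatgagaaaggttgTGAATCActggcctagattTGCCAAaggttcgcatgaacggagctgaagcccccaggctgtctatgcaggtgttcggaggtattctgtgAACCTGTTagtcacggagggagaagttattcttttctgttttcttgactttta
Rngtt to Cnr1 cluster, chr4:33674727-33674966: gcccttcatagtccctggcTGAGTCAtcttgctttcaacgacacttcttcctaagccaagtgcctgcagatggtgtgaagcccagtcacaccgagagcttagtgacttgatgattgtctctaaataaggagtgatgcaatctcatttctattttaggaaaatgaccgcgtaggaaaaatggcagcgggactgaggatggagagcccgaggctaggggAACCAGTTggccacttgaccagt
Myc desert, chr15:61980697-61980936: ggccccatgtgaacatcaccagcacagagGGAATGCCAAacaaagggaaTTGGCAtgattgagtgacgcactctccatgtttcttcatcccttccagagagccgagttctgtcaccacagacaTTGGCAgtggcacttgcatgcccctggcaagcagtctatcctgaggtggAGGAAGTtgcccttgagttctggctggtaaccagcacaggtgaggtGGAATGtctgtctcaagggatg
Gata3 desert, chr2:9519428-9519667: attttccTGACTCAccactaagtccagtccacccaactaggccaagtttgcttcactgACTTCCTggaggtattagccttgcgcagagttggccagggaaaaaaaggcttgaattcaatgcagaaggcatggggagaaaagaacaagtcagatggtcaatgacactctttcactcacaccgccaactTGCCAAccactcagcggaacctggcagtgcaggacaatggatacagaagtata

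The Myc window lay 161.8 kb downstream of the start of Myc and held 3 NFI cores, 2 TEAD matches and 1 ETS match in the printed stretch. The Gata3 window lay 280.7 kb downstream of the start and held 1 match each to AP-1, ETS and the NFI core. Of the 6 cluster windows, 5 held an AP-1 match. That of the Rad51l1 to Zfp36l1 cluster held an NFI core and a GRHL match. Each of the 6 was picked for the most motif families, AP-1 among them, so the 5 of 6 does not describe the clusters. Of all desert windows, 20.4% held an AP-1 match. A further set shows rarer motifs: for CTCF, the full palindromic NFI site and the p53 consensus, the window whose match, in capitals, lay nearest to the summit. The last sequence lies at the start of Rassf10, with every CpG in capitals.
CTCF window near Xkr9, chr1:13779415-13779534: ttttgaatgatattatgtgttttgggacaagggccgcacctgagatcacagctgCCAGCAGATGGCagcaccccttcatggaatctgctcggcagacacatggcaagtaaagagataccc
NFI full site window near Cadm1, chr9:47166257-47166376: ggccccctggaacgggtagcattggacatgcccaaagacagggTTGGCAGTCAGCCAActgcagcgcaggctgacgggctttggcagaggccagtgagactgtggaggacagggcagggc
p53 window near Trpm1, chr7:71197378-71197497: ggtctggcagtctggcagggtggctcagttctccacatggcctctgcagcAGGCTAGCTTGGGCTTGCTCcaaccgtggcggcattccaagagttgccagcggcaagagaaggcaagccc
Rassf10 start window, chr7:120097816-120098055: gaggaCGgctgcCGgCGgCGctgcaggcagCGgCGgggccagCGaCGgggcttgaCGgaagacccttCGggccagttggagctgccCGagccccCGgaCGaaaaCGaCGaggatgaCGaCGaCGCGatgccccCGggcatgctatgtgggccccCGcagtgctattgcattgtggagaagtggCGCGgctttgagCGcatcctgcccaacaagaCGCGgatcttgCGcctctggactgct

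Sequence that met the desert rule made up 779 Mb, or 30.5% of the genome without gaps. It held 4.49 windows per Mb, against 26.2 per Mb in the rest of the genome, a ratio of 0.172. By the rule, the rest holds all 17934 windows within 1 kb of a start (35.9% of the list). No ratio without those windows was computed. The desert windows together covered 1684 kb, which is 0.216% of desert sequence. Outside gene bodies the density fell at every step of distance. It was 350 windows per Mb within 1 kb of a start, 20.9 at 1 to 10 kb and 14.7 at 10 to 100 kb. Among desert windows it was 8.46 per Mb at 100 to 200 kb, 3.92 at 200 to 500 kb and 1.06 beyond 500 kb.

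**Figure D1:**
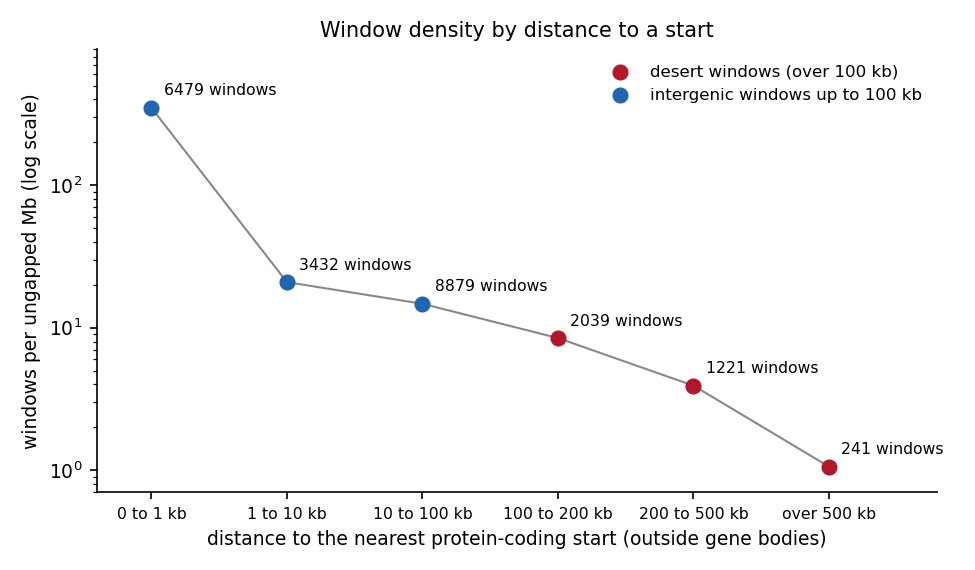
Windows per ungapped Mb outside gene bodies (log axis) by distance to the nearest protein-coding start. Each point is 1 distance range, with desert windows in red and nearer intergenic windows in blue. The density was 8.46 per Mb at 100 to 200 kb and 1.06 per Mb beyond 500 kb, with 2039 and 241 windows.

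The median desert window lay 177 kb from a start (interquartile range 130 to 277 kb). There were 1462 windows (41.8%) beyond 200 kb, 241 beyond 500 kb and 35 beyond 1 Mb. They lay upstream and downstream of the nearest start about equally, with 1771 upstream at 4.35 per Mb and 1730 downstream at 4.64 per Mb. The farthest was 2213176 bp upstream of Pik3c3. The next were a pair from 1 called peak 2129956 and 2129573 bp downstream of Cntnap5b, 1 window 2065088 bp downstream of Olfm4 and 1 window 1820987 bp downstream of Efna5. The members closest to the limit lay 100023 bp from Ephb3, 100051 bp from Ehf and 100063 bp from 2610044O15Rik. The nearest windows left out lay 99997 bp from Irx4, 99969 bp from Sfrp1 and 99934 bp from Fut8.

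Deserts were poorer in windows than the rest of the same chromosome on 20 of 20 chromosomes. Here too the rest held every window within 1 kb of a start by the rule. The ratio ran between 0.0815 on chromosome 19, which had 27 desert windows at 2.37 per Mb, and 0.426 on chromosome 13. Chromosome 13 had the highest desert density, 9.06 per Mb with 320 windows, while its other sequence held 21.3 per Mb, below the autosomal median of 26.8. Chromosome X had 77 desert windows at 1.32 per Mb, which is 0.287 of the autosomal median of 4.59. Its other sequence held 10.3 windows per Mb, or 0.383 of the autosomal median. The number of copies of each chromosome in the tumour cells was not measured here.

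**Figure D2:**
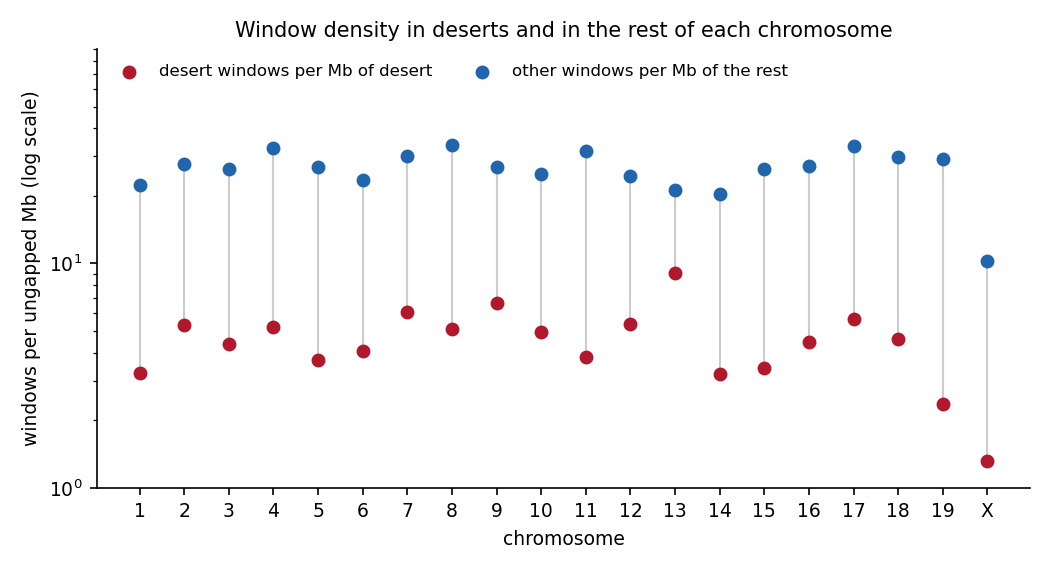
Windows per ungapped Mb (log axis) on each chromosome, with desert windows per Mb of desert in red and other windows per Mb of the remaining sequence in blue. Red lies below blue on every chromosome, and the gap is narrowest on chromosome 13 (9.06 and 21.3 per Mb).

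The desert windows were spread unevenly over deserts. Unbroken runs of sequence that met the rule, called stretches here, numbered 1975, and 875 of them (44.3%) held a window. The 20 stretches with the most windows held 410 desert windows, or 11.7% of all, in 1.31% of desert length. Among 215 stretches of 1 Mb or more, 64 held none and the median was 0.805 windows per Mb (interquartile range 0 to 2.51). Stretches with a window were longer, with a median of 313 kb, against 105 kb for the 1100 without one.

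The stretch between Chd7, a chromatin remodeller, and Clvs1 on chromosome 4 (chr4:8794807-9096463) led with 31 windows of 24 called peaks, or 103 per Mb. The stretch between Phlda1 and Krr1 on chromosome 10 followed with 30 windows of 17 called peaks at 113 per Mb. Between Id2, an inhibitor of basic helix-loop-helix factors, and Rnf144a, 27 windows lay in 1111 kb, which at 24.3 per Mb was the densest stretch of 1 Mb or more. Agtr1b to Tbl1xr1 held 23 windows, all upstream of their nearest start and between 112.8 and 801.7 kb from it. Tbl1xr1 encodes a corepressor subunit. Prl5a1 to Sox4 and Ly86 to Rreb1, both on chromosome 13, held 22 each, and Map3k1 to Ankrd55, also on chromosome 13, held 21. The stretches differed in their motifs: an AP-1 match stood in 12 of 30 windows of Phlda1 to Krr1 and in 1 of 22 windows of Prl5a1 to Sox4, and the NFI core stood in 6 of 30 and 10 of 22 windows. These counts were picked after the values were seen.

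Haao to Zfp36l2 was the densest of the 20 at 150 windows per Mb, with 21 windows in 140 kb. Irf2bp2 to Tomm20 held 20, Tead1 to Arntl and 4931429L15Rik to Cadm1 held 19 each, and Tmem38b to Zfp462 and Mpdz to Nfib held 18 each. Zfp36l2 encodes an RNA-binding protein that promotes mRNA decay, Tead1 the DNA-binding partner of the Hippo coactivators, Arntl a core clock factor and Nfib a nuclear factor I protein. The 7 stretches with 17 windows were Tnp1 to Tns1, Gli2 to Inhbb, Egln3 to 1110002B05Rik, Rad51l1 to Zfp36l1, Rngtt to Cnr1, 2410131K14Rik to Med13l and Mki67 to Mgmt. Egln3 encodes an oxygen-dependent prolyl hydroxylase of HIF, and 14 of the 17 windows of its stretch held the HIF core motif. That core is short, and 43.5% of all desert windows held it, against 21.9% of 500 bp tiles of desert without a window and 58.7% of all windows. Within 1 kb of a start, 76.7% of windows held it. Among regions of 45 to 50% GC, 42.8% of desert windows and 31.1% of tiles held it. The count for this stretch was picked after the values were seen.

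**Figure D3:**
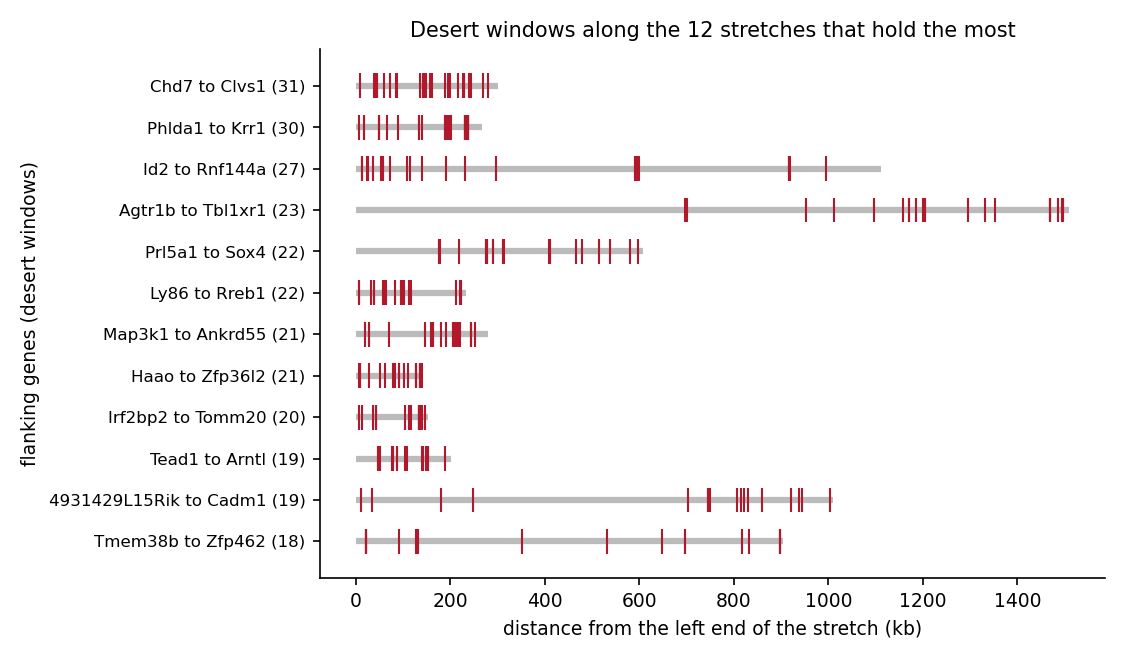
Positions of desert windows (red ticks) along the 12 stretches that hold the most, drawn as grey bars, in kb from the left end. Labels give the flanking genes and the number of windows. Windows fill the Chd7 to Clvs1 stretch, while in Agtr1b to Tbl1xr1 the first of 23 stands 696 kb from the left end.

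The 10 longest stretches without a window ran between 2440.5 and 3579 kb. The longest lay on either side of Pcdh7, a protocadherin (Pcdh7 to G6pd2 at 3579 kb, Stim2 to Pcdh7 at 3413 kb). The others were Gm17624 to Vstm2a, Diap2 to Pcdh19, Gm10110 to Pcdh9, Kcnt2 to Cdc73, Prmt6 to Amy2a5, Svip to Luzp2, Nxph1 to Ndufa4 and Gm9931 to Pla2g4a.

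Desert windows were less often close to another window than nearer intergenic windows were. Another window lay within 5 kb for 48.8% of desert windows (47.1 to 50.5%), against 57.6% of intergenic windows at 10 to 100 kb (56.6 to 58.6%) and 74.0% at 1 to 10 kb (72.5 to 75.5%). Windows of 1 called peak or close together are not independent, so these intervals are too narrow. The called peak had kept 2 or more windows for 27.8% of desert windows, against 31.2% at 10 to 100 kb and 36.8% at 1 to 10 kb. Joined at the distance customary for stitching enhancers into super-enhancers, desert windows formed 2127 clusters. Of these, 1410 were single windows (40.3% of desert windows), while 307 clusters of 3 or more held 1271 windows (36.3%).

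The largest cluster held 14 windows of 9 called peaks in 23.4 kb between Cebpb and Ptpn1 (chr2:167633659-167657065), 101 kb upstream of Ptpn1 at its nearest. Cebpb encodes a C/EBP factor of mammary and fat cell differentiation, and Ptpn1 a tyrosine phosphatase. A cluster of 12 windows of 6 called peaks lay in 11.6 kb between Etaa1 and Meis1, a homeobox factor. Clusters of 11 lay in Gli2 to Inhbb and Rad51l1 to Zfp36l1. Phlda1 to Krr1 held a cluster of 10 and another of 9, and Rngtt to Cnr1 a cluster of 10. Haao to Zfp36l2, Ccdc34 to Bbox1 and Chd7 to Clvs1 held clusters of 9. With gaps of up to 5 kb, the largest remaining piece of the Rad51l1 to Zfp36l1 cluster held 3 windows and that of the Gli2 to Inhbb cluster 5.

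The called peak with the most desert windows had 6, in Rngtt to Cnr1 (chr4:33672161-33675096), 275 kb from Rngtt, which encodes the mRNA capping enzyme. Called peaks with 5 lay nearest to Krr1, Gm16140, 1110002B05Rik, Chrm3, Tprg, Rab2a, Mpdz, 2410131K14Rik and Tead1. Those with 4 lay nearest to Krr1, Id2, Klf12, Chd7, Tmem38b, Cdk5rap2, Fzd1, Mki67 and Snx19. The called peak nearest to Tead1 covers Rassf10, which M1 annotates as a pseudogene and the RefSeq table of GRCm38 as protein coding.

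Each desert window was given to its nearest protein-coding start, as a label of place only. Of 3151 genes nearest to some desert sequence, 1133 had at least 1 desert window, which is 36.0%. Myc, the growth-promoting transcription factor, had the most, with 23 windows of 22 called peaks in 1241 kb of desert (18.5 per Mb). There were 10 upstream, between 267.9 and 462.1 kb from the start, and 13 downstream, between 117.4 and 582.1 kb. Of the upstream windows, 3 lay between 364.4 and 366.2 kb from the start, and 6 downstream windows lay between 217.1 and 225.0 kb from the start. In the body of the noncoding gene Pvt1, downstream of Myc, there were 11 windows. Of the 23 windows, 8 held an AP-1 match, 8 an NFI core, 9 a TEAD match, 8 an ETS match, 3 a RUNX match and 2 a GRHL match. Over all desert windows the shares, in that order, were 20.4%, 47.5%, 30.2%, 17.8%, 11.8% and 10.7%.

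The lists of genes below were counted against that 36.0% of genes with a desert window and 4.49 windows per Mb over all of them. The lists were chosen with earlier results of these data known, so their counts are a description only. Among growth and cell cycle regulators, 7 of 7 genes nearest to desert sequence had a desert window, at 23.3 per Mb. Besides Myc these included Id2 with 17, Ccnd1, which encodes cyclin D1, with 7, and Cdkn2b, a CDK inhibitor, with 4. Among luminal and epithelial factors, 11 of 12 genes had one, at 11.9 per Mb. Gata3, which maintains luminal cells, had 13, all downstream, between 120.4 and 1149 kb from its start. Runx1 had 12, all upstream, and Klf5 and Cited2 had 7 each. Of the factor genes of AP-1, NFI, TEAD and RUNX, 4 of 5 had one (30.9 per Mb), with Runx1 at 12, Tead1 at 7, and Jun and Nfib at 4 each. Of the 7 windows of Tead1, 5 came from the called peak that covers Rassf10, and the 30.9 per Mb includes them.

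Kit, a receptor tyrosine kinase of luminal progenitors, had 12 desert windows (56.8 per Mb) with 104.3 to 170.7 kb between them and its start, and it was the 1 gene of 5 among luminal and epithelial markers with any. In the list of receptor tyrosine kinases and their ligands, 4 of 16 genes had one, with Fgfr2 and Fgf9 at 4 and Fgfr1 at 1 besides Kit. Of 5 basal and myoepithelial genes, Sox9 had 10 and Trp63, the basal cell factor p63, had 6, and the start of Trp63 itself had no window within 1 kb. Of 3 hypoxia response genes nearest to desert sequence, Egln3 had 7 and Vegfa, the angiogenic growth factor, had 1. Developmental factors often found beside deserts had a window in 47 of 72 cases (8.23 per Mb), with Lmo4 at 14, Sox4 at 12, and Bmp7 and Zeb2 at 11 each.

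Neuronal adhesion and synaptic genes were nearest to 52.5 Mb of desert and had 20 windows, or 0.381 per Mb. A window occurred for 15 of 55 of them. Pcdh18 had 3, and Cdh2, Ncam2 and Cdh9 had 2 each. Of the 55 genes, 14 had a window within 1 kb of a start, against 1608 of 3151 over all genes. The count was 7 of 7 for growth and cell cycle regulators, 12 of 12 for luminal and epithelial factors and 1 of 11 for fibroblast and endothelial genes. Window density fell with distance from a start, and the lists were matched neither for distance nor for windows at starts. Of 11 fibroblast and endothelial genes, 3 had desert windows (9.96 per Mb). These were Cdh5, the endothelial cadherin, with 11, Dcn with 3 and Kdr with 2, and none of the 3 had a window within 1 kb of its own start. The list pools all cells, so a window cannot be given to a cell type. Olfactory receptor genes had none in 1.14 Mb and vomeronasal receptor genes had 1 window in 0.990 Mb. Of the genes whose proteins were stained, Hif1a, the hypoxia-inducible factor subunit, had 5 desert windows in 23.2 kb and an accessible start. Ptprc had none in 11.1 kb and Epcam was nearest to no desert sequence. The gene on which a desert window acts was not measured, and the nearest gene may not be it.

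**Figure D4:**
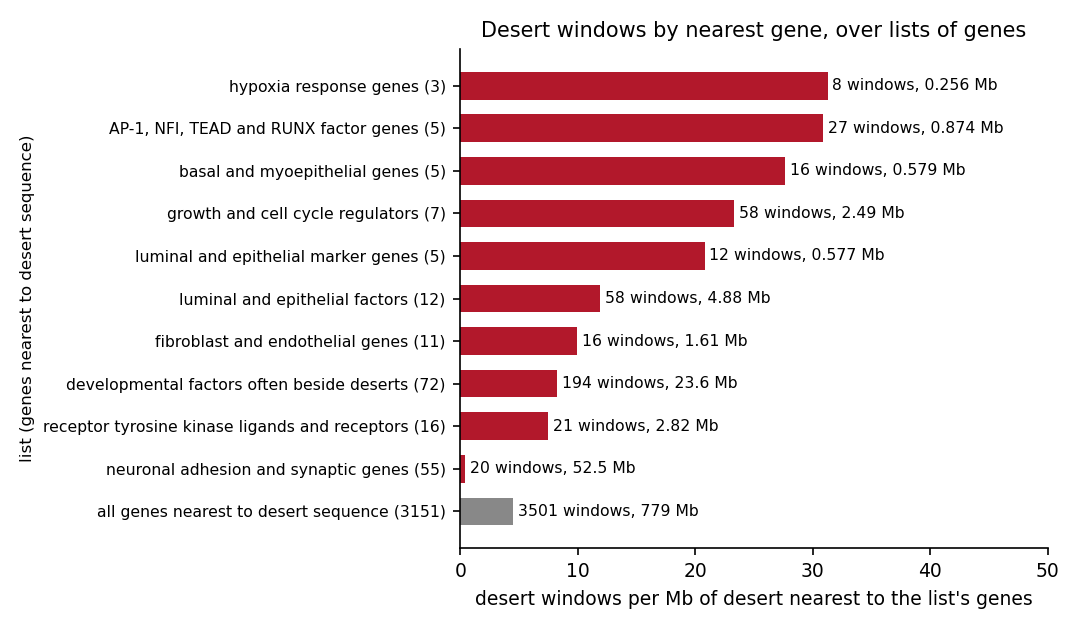
Desert windows per Mb of the desert sequence nearest to the genes of each list (bars), with the number of windows and the length beside each bar and the number of genes in brackets. The hypoxia bar rests on 8 windows, and neuronal adhesion and synaptic genes had 0.381 per Mb, below the 4.49 per Mb of all genes.

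Deserts beside genes with an accessible start held more windows. Accessible here means that some window had its midpoint at most 1 kb from the start, which was so for 51.7% of 22342 protein-coding genes. Desert sequence nearest to such a gene held 6.37 windows per Mb (2366 windows, 1608 genes), against 2.78 per Mb (1135 windows, 1543 genes) beside the other genes, a ratio of 2.29. The ratio was over 1 on 19 of 20 chromosomes, with 5.79 on chromosome 15 as the highest and 0.995 on chromosome 13 as the exception. It was 2.37 at 100 to 200 kb, 2.15 at 200 to 500 kb and 1.68 beyond 500 kb. Stretches whose flanking genes were both accessible held 7.80 windows per Mb and 58.2% of 514 had a window (53.8 to 62.5%). Stretches with 1 accessible flanking gene held 4.38 per Mb, and those with neither held 1.792 per Mb, with a window in 25.7% of 502 (21.9 to 29.8%).

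The share of genes with an accessible start was 51.0% among the 3151 genes nearest to desert sequence, close to the 51.7% of all genes. It was 61.7% among the 1133 genes nearest to a desert window (58.8 to 64.5%) and 71.2% among the 59 genes nearest to 10 or more (57.9 to 82.2%). Genes with many desert windows but without an accessible start included Clvs1 with 19, Ly86 with 18 and Ankrd55 with 17. Each of them bounds a stretch whose other flanking gene (Chd7, Rreb1 and Map3k1) had an accessible start. Tns1 with 14 and Cdh5 with 11 windows had no accessible start either, and they bound the stretches Tnp1 to Tns1 (17 windows) and Gm8730 to Cdh5 (11 windows), in which neither flanking gene had one.

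Desert windows were also counted at annotated noncoding genes. Within 1 kb of a noncoding start there were 74 (2.11%), 209 (5.97%) lay in a noncoding gene body, and 3257 (93.0%) did neither. These shares were not computed over all windows or over desert length. With starts and bodies of every gene type in the rule, 1872 of the 3501 windows remained. The others lay in a gene body or at most 100 kb from a start under that rule. Of 54 starts of long intergenic noncoding RNAs (lincRNAs) in deserts, 16 had a window (29.6%, 18.0 to 43.6%), against 53.6% of 1219 elsewhere. The share was 18 of 309 for processed transcripts (5.83%, against 21.3% elsewhere) and 6 of 1012 for pseudogenes (0.593%, against 3.03% elsewhere). Starts in deserts lay over 100 kb from a protein-coding start by the rule, while starts elsewhere could lie beside one. Starts with 3 windows included those of Gm16950, 2610307P16Rik, A230028O05Rik, 2410004N09Rik, Gm4876, Rassf10 and Gm5124. The start of Rmst, a lincRNA of neural differentiation, had 2. The gene bodies with the most were 2610307P16Rik with 19, in the Prl5a1 to Sox4 stretch, Gm14005 with 13 and Pvt1 with 11. Of 64 such noncoding genes with a RefSeq entry of the same symbol, 4 (Ttc28, Rassf10, Gfi1 and Gm829) were protein coding there, and 13 desert windows (0.371%) lay in or at them.

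The bases of desert windows differed from those of the sequence around them. All 500 bp tiles of desert sequence that overlap no window, 1550351 in number, were counted as background. The median GC content was 48.2% in desert windows (interquartile range 45.2 to 51.6%), against 39.0% in desert tiles, 50.2% in intergenic windows at 10 to 100 kb and 62.0% in windows within 1 kb of a start. Bases in 16-mers that occur 20 or more times in the genome, a measure of repeats, made up 23.4% of desert windows, against 49.7% of desert tiles and 22.7% of intergenic windows at 10 to 100 kb. Reads were kept only where they mapped uniquely, so repeated sequence could be called less often, and its part in these shares was not tested. Of desert windows, 62 (1.77%, 1.36 to 2.27%) were CpG island-like, with a GC content of at least 50% and an observed over expected CpG ratio of at least 0.6. The share was 0.211% of desert tiles, 6.35% at 10 to 100 kb, 68.6% within 1 kb of a start and 28.2% of all windows. Of the 62, 4 lay in the Tead1 to Arntl stretch and 3 in Chd7 to Clvs1, and the window with the most CpGs, 71, stood 811 kb from Gm7536.

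Of 22 motifs searched on both strands, 17 occurred in a larger share of desert windows than of desert tiles. The 17 include NRF1, in 2 desert windows, and the steroid receptor motif, in 1, and the intervals of both hold the share of tiles. The count was 18 in the central 200 bp, 20 with repeated 16-mers not searched and 16 for desert windows beyond 200 kb. The NFI core stood in 47.5% of desert windows (45.8 to 49.1%), against 22.8% of desert tiles, 40.4% of intergenic windows at 10 to 100 kb, 18.7% of windows within 1 kb of a start and 33.2% of all windows. Its matches were concentrated at the summit, with 1.72 per kb within 50 bp of it and 0.863 per kb at 150 to 250 bp. AP-1 stood in 20.4% of desert windows (19.0 to 21.7%), against 14.5% of desert tiles, 20.4% at 10 to 100 kb and 14.8% of all windows. ETS stood in 17.8%, against 11.2% of tiles and 16.0% of all windows. The E-box of the SNAI and ZEB repressors (CAGGTG) stood in 35.9% of desert windows, against 22.6% of tiles and 36.9% of all windows, GRHL in 10.7%, against 8.01% and 8.41%, and RUNX in 11.8%, against 10.4% and 9.44%. The FOX motif (TGTTTAC) stood in 7.63% of desert windows, against 7.73% of tiles, and in 5.97%, against 4.198%, with repeated 16-mers not searched. NFI, AP-1, GRHL, RUNX and ETS proteins are factors that bind distal elements in epithelial cells, and a match is a description of letters, not a bound site.

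Compared with windows within 1 kb of a start, desert windows less often held matches to SP/KLF, TFAP2 and CRE. SP/KLF (GGGCGG) stood in 11.6% of desert windows, against 70.5% within 1 kb of a start, 2.49% of tiles and 37.2% of all windows. TFAP2 (GCCNNNGGC) stood in 20.0%, against 39.6% within 1 kb of a start, 4.14% of tiles and 29.2% of all windows. Its matches were also concentrated at the summit, at 0.714 per kb within 50 bp and 0.299 per kb at 150 to 250 bp. The cAMP response element CRE (TGACGTCA) stood in 22 desert windows (0.628%), against 2.87% within 1 kb of a start and 1.52% of all windows.

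CTCF matches were rare but stood out from the background. They occurred in 46 desert windows (1.31%, 0.964 to 1.75%), against 0.108% of desert tiles, a ratio of 12.2. The share was below the 2.57% of intergenic windows at 10 to 100 kb and was 0.735 times that of all windows. With repeated 16-mers not searched it was 0.714%, and no p53 match was left. Of these 46 windows, 26 stood alone. Within desert windows, CTCF stood in 1.84% of those alone (1.21 to 2.69%) and 0.708% of those in clusters of 3 or more (0.324 to 1.34%). The latter share rests on 9 windows, and these intervals overlapped. The NFI core showed the same order, with 52.0% of windows alone (49.3 to 54.6%) and 43.2% of windows in clusters of 3 or more (40.4 to 46.0%). AP-1 did not separate them, at 20.6% and 20.3%. The full NFI site and the p53 consensus each occurred in 4 desert windows, and for p53 that was 0.114%, against 0.0112% of desert tiles and 0.0260% of all windows.

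The share of windows with a motif was also set against that of intergenic windows at 10 to 100 kb. SOX (ACAATGG) stood in 9.14% of desert windows (8.21 to 10.1%), against 7.16% of those (6.63 to 7.72%) and 9.60% of desert tiles, and C/EBP (TTGCNNAA) in 26.8% (25.4 to 28.4%), against 22.7% of those (21.8 to 23.6%) and 24.3% of tiles. For the motif of GATA factors, spelled AGATAA, the shares were 18.9% and 16.8%, and their intervals overlapped. Windows of the same called peak or close together are not independent, so all intervals on motif shares are too narrow. TEAD stood in 30.2%, against 27.6%. Of all windows, 5.92% held SOX, 19.0% C/EBP, 13.6% the GATA factor motif and 24.7% TEAD. GATA factor matches were fewer than in desert tiles (33.5%) and were thinned at the summit, at 0.337 per kb within 50 bp, against 0.511 per kb at 150 to 250 bp. Base composition moved with these shares. Among regions of 45 to 50% GC, 48.8% of 1429 desert windows held the NFI core, against 24.0% of 211484 tiles, a ratio of 2.04. There the ratio was 1.47 for AP-1, 1.86 for GRHL, 1.96 for TFAP2 and 8.60 for CTCF, while that for TEAD was 0.963, against 1.17 without regard to GC. The ratio there was 1.26 for SP/KLF, against 4.65 without regard to GC, and 1.11 for the E-box, against 1.59. For the motif of GATA factors it was 0.888, against 0.564, and for FOX it was 1.35, against 0.986. For SOX it was 1.19, against 0.952, and for C/EBP it was 1.48, against 1.1. Intergenic windows at 10 to 100 kb were not matched for GC, and their median was 50.2%, against 48.2% in desert windows.

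**Figure D5:**
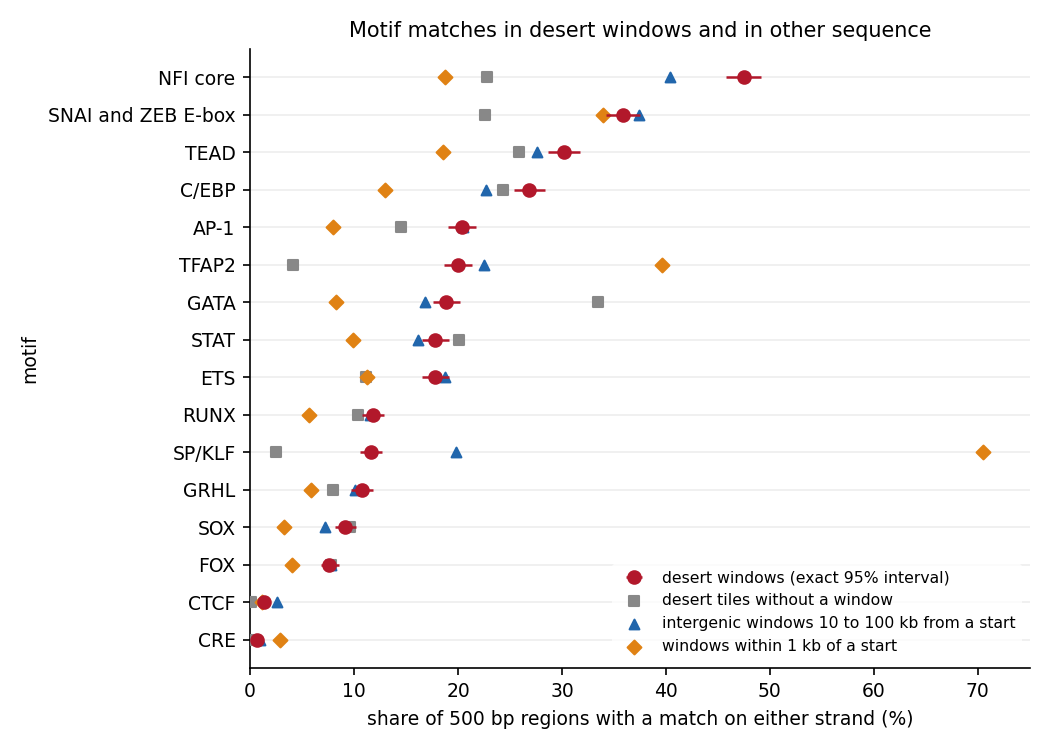
Share of 500 bp regions with a match to each of 16 motifs (%), for desert windows (red, bars are exact 95% binomial intervals), desert tiles without a window (grey), intergenic windows 10 to 100 kb from a start (blue) and windows within 1 kb of a start (orange). The NFI core has the highest share in desert windows, 47.5%, and SP/KLF the largest gap to windows near starts, 11.6% and 70.5%.

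Of the 6 families AP-1, NFI core, TEAD, GRHL, RUNX and ETS, 699 desert windows (20.0%) held none, against 35.9% of tiles. A single family stood in 37.7%, against 40.8% of tiles, 2 families in 29.4%, against 18.6%, and 3 families in 10.5%, against 4.13%. These counts were not made over all windows or over intergenic windows at 10 to 100 kb. The tiles had a lower median GC content than desert windows (39.0%, against 48.2%). They also had more bases in repeated 16-mers (49.7%, against 23.4%), and neither was matched. AP-1 and the NFI core shared 342 windows (9.77%), and the product of their shares is 9.67%. NFI core and TEAD shared 518 (14.8%, product 14.3%). Beyond 500 kb, 49.0% of 241 windows held the NFI core and 19.9% AP-1, and at 100 to 200 kb 45.7% and 21.0% did. The median GC content was 46.0% beyond 500 kb and 48.8% at 100 to 200 kb, and repeated 16-mers made up 30.8% and 21.6% of bases.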

How the data were processed

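The deposited file is a list of 50000 positions, with chromosome, start, end and name and no score. Per the methods, the authors trimmed reads, mapped them to mm9 with Bowtie2, kept unique, good-quality reads outside the mitochondrial genome, removed duplicates with Picard, called summits on aggregated cells with MACS2, and kept the 500 bp windows of lowest q-value. The submitters' processing notes name Bowtie2 2.1.0 and the builds mm9 and hg19; the MACS2 version is not given in the sources used here. The q-value order is not in the deposited list, so a weak window cannot be told from a strong one, and sites too weak for the list are missing. The methods give an average read number per cell for the study as a whole; the depth of these cells and behind each window is not in the list, and 0 per-sample columns were left unused.

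Distances ran from the window midpoint to the nearest of 45993 protein-coding starts in GENCODE M1, on 20 chromosomes. The reference genome was mm9. It carries no repeat masking, so bases in 16-mers that occur 20 or more times stood in for repeats, and settings that need masked bases were not run. Motifs (22) were matched to consensus letters on both strands. Gene symbols were matched to 11 lists with 371 entries. Named were the 20 stretches, 10 clusters and 5 farthest windows with the highest values, called peaks with 4 or more windows, up to 20 noncoding genes, up to 4 members per list, the 10 longest empty stretches, and Epcam, Hif1a and Ptprc. Intervals are exact (Clopper-Pearson, 95%) and cover counting error only. Windows of the same called peak or close together are not independent, so intervals on shares of windows are too narrow. There are no replicates, so no test was run. Members and lists were chosen with earlier results of these data known. Scripts were tested on simulated data and used Python 3.11.15, pandas 2.3.3, NumPy 2.4.6, SciPy 1.17.1, numba 0.67.0 and matplotlib 3.10.9. Alternatives changed the distance limit, the annotation, the unit, chromosome X, the accessible distance, the join distance and the searched bases.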

Additional observations from a re-analysis of the deposited data

How the results depend on the processing

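The share of windows in deserts, 7.00%, was 12.69% at a limit of 50 kb and 2.924% at 200 kb, 3.744% with every gene type as a gene, 7.352% with the outermost start of each gene and 7.693% with the called peak as unit. With all transcripts of protein-coding genes as starts it was 6.728%, and without windows made up of over 50% repeated 16-mers 6.756%. The density ratio of deserts to the rest, 0.172, was 0.226 at 50 kb, 0.113 at 200 kb and 0.196 with repeated 16-mers left out of the length. It stayed below 1 in each of these, with all windows at starts counted in the rest. The ratio between deserts beside accessible and other starts, 2.29, was 2.68 with starts accessible within 10 kb, 4.36 for both flanking genes against neither, and 1.68 for windows over 500 kb from a start, and it stayed above 1. The share with a neighbour, 48.8%, was 66.35% within 20 kb and 31.28% for called peaks with neighbours from other called peaks. Repeated 16-mers covered 22.09% of the central 200 bp, and joining at 5 kb left 48 clusters of 5 or more, against 81. The settings on all transcripts, on repeated 16-mers and on distance bands were chosen after seeing the data. Of 76 further values for single motifs and clusters under alternatives, 46 moved, 19 of them motif shares in the central 200 bp, where fewer bases are searched, and 17 motif shares with repeated 16-mers not searched. No paired analysis was possible because the series has 1 pooled list. The read depth behind each window is not in the list, and a desert without a window may hold sites too weak for the list.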
